A study of Mus musculus with 18 samples.

Results

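The serpins are a family of protease inhibitors, found here by their gene symbols in a table of mouse transcript levels. A symbol counted when it was Serpin, a clade letter from a to i, a number and at most 1 further letter. Serpinh1, a collagen chaperone, and Serping1, the inhibitor of the complement C1 proteases, were left out. Described here are 60 symbols in 56 of the 51499 loci of the table. Of these loci, 52 held 1 symbol and 4 held 2 neighbouring serpins that the authors' assembly had joined.

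Most serpins stop a protease by offering it a loop as bait. The protease cuts the loop, stays bound to it and is dragged across the serpin, which deforms both for good. Clade A holds inhibitors of the blood plasma and their relatives, clade B the serpins that mostly stay inside the cell, and clade F secreted members that act on blood vessels and plasmin. A few serpins, among them Serpinf1, inhibit no protease. Fibroblasts are known for secreting Serpinf1. Secreted serpins fold in the endoplasmic reticulum (ER), and those with N-linked glycans acquire them there.

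The cells were mouse embryonic fibroblasts labelled Ago2+/+ or Ago2-/-, the second lacking AGO2, the slicing Argonaute protein of RNA interference. Both genotypes were given DMSO (the solvent), tunicamycin, which blocks N-linked glycosylation, or 500 nM of thapsigargin, which blocks the calcium pump of the ER. Each of the 6 groups had 3 libraries, and the study asked how loss of Ago2 alters the mRNAs of cells under ER stress. No age, strain, further allele or number of cell clones is given in the sources used here. The values are FPKM, fragments scaled to the length of the transcript and to the number of mapped fragments. The table holds 1 FPKM per group, a pooled estimate from all its libraries. The FPKM columns therefore carry no spread between replicates and no depth. The authors' own test of each pair of groups was not used, so no difference below was set against replicate error.

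The labels did not match the level of the targeted gene. For DMSO, tunicamycin and thapsigargin in this order, the FPKM of Ago2 was 22.1, 5.75 and 17.0 with the Ago2+/+ label, and 5.61, 15.5 and 20.7 with the Ago2-/- label. It was lower in the labelled knockout under DMSO but higher there under tunicamycin and thapsigargin. The study's reporting form says that the knockout fibroblasts had been checked by immunoblot and lacked AGO2 protein, which RNA levels do not measure. The sources used here do not say which exons were removed, and fragments of the exons left in place would be counted. The part of such fragments in these values was not tested. The labels of 4 libraries also gave 2 different genotypes, and the titles of the groups labelled Ago2+/+ read DCR1. Every direction given below therefore holds for the groups as labelled.

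The groups also lay close together in 3 pairs that cross both labels: Ago2-/- thapsigargin with Ago2+/+ DMSO, Ago2-/- DMSO with Ago2+/+ tunicamycin, and Ago2-/- tunicamycin with Ago2+/+ thapsigargin. Over the loci with at least 1 FPKM in a group, serpins left out, the median absolute log2 ratio was between 0.10 and 0.18 within these 3 pairs and between 0.39 and 0.50 in the other 12 pairs of groups. The summed level of 4 smooth muscle markers (Acta2, Tagln, Cnn1 and Myh11) was 2417 FPKM in the group labelled Ago2+/+ thapsigargin and 1800 in Ago2-/- tunicamycin, against 2.23 to 6.42 FPKM in the other 4 groups. Myh11, a marker of mature smooth muscle, stayed at or under 0.0730 FPKM. The summed level of 6 interferon response genes was 67.6 FPKM in Ago2+/+ DMSO and 40.8 in Ago2-/- thapsigargin, and 5.39 to 18.3 in the other groups. The fibroblast markers summed to between 3000 and 3955 FPKM, but single markers varied far more. Vim (vimentin) ran from 952 to 2634 FPKM and the locus that joins S100a4 to S100a3 and Gm42674 from 285 to 1967. Col1a1 (a chain of collagen I) ran from 5.97 to 651 FPKM, Fn1 (fibronectin) from 46.4 to 600 and Pdgfrb (a growth factor receptor) from 0.540 to 17.9. Thy1 was listed at 0 and Lum did not pass 0.0138 FPKM in any group. Epithelial (at most 1.33), endothelial (at most 0.449) and hepatocyte (at most 0.0604) marker sums were low, and the leukocyte sum of 3.68 to 17.9 came mainly from Cd14 and Cd68, with Adgre1 listed at 0 and Ptprc at or under 0.0758. The part of these differences in the serpin values was not tested. In bulk RNA, fewer cells of a type and less RNA per cell cannot be told apart.

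Of the 56 loci, 10 (17.9%) reached 1 FPKM in at least 1 group, against 13032 of all loci (25.3%). The difference between these shares was not tested, and the serpin counts leave out 1 locus that is not reported here. The highest value was 10 FPKM or more for 2 loci, between 1 and 10 for 8, between 0.1 and 1 for 7 and above 0 but under 0.1 for 19, and 20 loci were listed at 0 in all 6 groups. Serpinf1 and Serpinb6a together made up between 95.0% and 97.1% of the FPKM summed over these 56 loci in every group. With the Ago2+/+ label that sum was 209.8 FPKM under DMSO, 261 under tunicamycin and 396 under thapsigargin, and with the Ago2-/- label 299, 436 and 187 FPKM. The leading serpin changed between groups. Serpinb6a made up 94.5% of the sum in Ago2+/+ DMSO and 83.8% in Ago2-/- thapsigargin, whereas Serpinf1 made up 61.0% in Ago2+/+ thapsigargin and 66.1% in Ago2-/- tunicamycin.

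**Figure D1:**
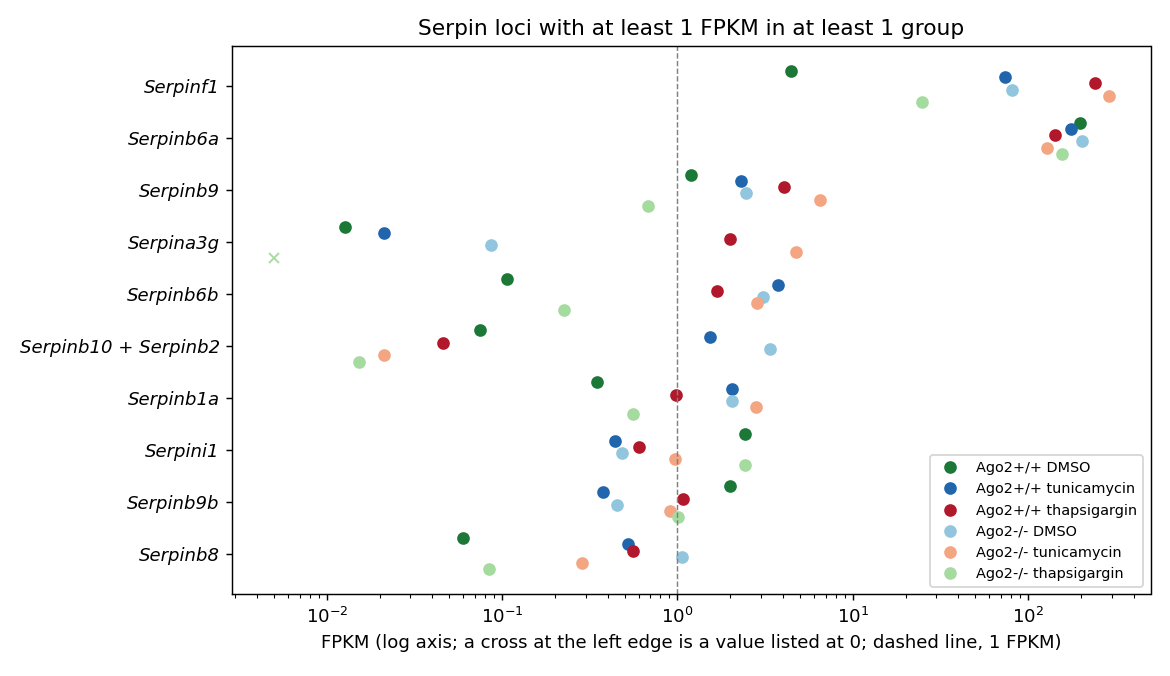
FPKM of the 10 serpin loci that reached 1 FPKM, on a log axis, with 1 point per group (the authors' pooled value, no error) and a cross for a value listed at 0. Serpinb6a sits between 128 and 203 FPKM in all groups, while Serpinf1 runs from 4.42 to 288.5 FPKM.

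The upstream sequences of 4 of these genes are shown because Serpinf1, Serpinb9 and Serpinb6b shared a direction under thapsigargin that is described further on, while Serpinb6a hardly varied. Each is the 250 bases before the gene's start in RefSeq (GRCm38.p6), read 5′ to 3′ on the gene's own strand. The windows are chr11:75422624-75422873 (minus strand) for Serpinf1, chr13:33004291-33004540 (plus strand) for Serpinb9, chr13:32965011-32965260 (plus strand) for Serpinb6b and chr13:34002795-34003044 (minus strand) for the first of the 2 windows of Serpinb6a. Capitals mark every match, on either strand, to the motifs named in the next paragraph.
Serpinf1: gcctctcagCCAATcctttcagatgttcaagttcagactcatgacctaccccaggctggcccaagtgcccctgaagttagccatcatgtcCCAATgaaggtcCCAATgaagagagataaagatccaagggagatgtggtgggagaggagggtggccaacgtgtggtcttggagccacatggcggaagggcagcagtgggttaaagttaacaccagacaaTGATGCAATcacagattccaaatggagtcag
Serpinb9: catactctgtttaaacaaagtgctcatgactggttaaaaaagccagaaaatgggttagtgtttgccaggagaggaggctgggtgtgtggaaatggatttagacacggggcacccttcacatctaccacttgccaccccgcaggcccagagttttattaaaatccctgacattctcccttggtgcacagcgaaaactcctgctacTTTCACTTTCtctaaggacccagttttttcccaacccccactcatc
Serpinb6b: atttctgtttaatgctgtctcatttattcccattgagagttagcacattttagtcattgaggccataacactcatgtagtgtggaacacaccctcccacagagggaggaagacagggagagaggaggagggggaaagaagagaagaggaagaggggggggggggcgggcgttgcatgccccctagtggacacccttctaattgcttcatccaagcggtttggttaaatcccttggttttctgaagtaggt
Serpinb6a: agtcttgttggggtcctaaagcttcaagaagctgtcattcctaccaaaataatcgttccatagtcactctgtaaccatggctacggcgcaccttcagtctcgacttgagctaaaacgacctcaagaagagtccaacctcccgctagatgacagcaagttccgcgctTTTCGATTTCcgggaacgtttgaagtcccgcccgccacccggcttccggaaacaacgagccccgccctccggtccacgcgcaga

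The motifs searched on both strands were the ER stress response element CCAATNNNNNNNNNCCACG, the CCAAT box alone, which that element contains, the C/EBP-ATF element TGATGNAAT, the XBP1 and ATF6 site TGACGTG, the AP-1 site TGANTCA with C or G at its N, TATAAA, the interferon-stimulated response element GAAANNGAAA and the CArG box, bound by serum response factor. Serpinf1 held 3 CCAAT boxes, at -241, -160 and -148 from the start, and the C/EBP-ATF match TGATGCAAT from -31 to -23. A C/EBP-ATF match was present in 268 of 32851 windows of the same length (0.816%), and a CCAAT box in 33.8%. Serpinb9 held TTTCACTTTC from -46 to -37, the reverse strand of an interferon-stimulated response element, and Serpinb6a held TTTCGATTTC from -84 to -75. That motif was present in 2.98% of all windows. The Serpinb6b window held none of the motifs. Of the 11 serpin symbols in the 10 loci, 10 had a window, and Serpinb1a had no entry. Among windows not printed, Serpinb8 held TGAGTCA at -23 to -17 (AP-1 sites were in 4.46% of windows), Serpinb2 held TATAAA at -29 to -24 (12.4%) and a CCAAT box at -210, with another TATAAA at -116 in its second window, and Serpini1 held a CCAAT box at -12. The second Serpinb6a window held a CCAAT box at -79. Serpina3g, Serpinb9b and Serpinb10 had no match. No serpin window held an ER stress response element (0.113% of windows), an XBP1 and ATF6 site (1.65%) or a CArG box (1.47%). GENCODE begins the gene 78 bases before the RefSeq start for Serpinf1, 52 bases before it for Serpinb6b and 1291 bases before it for Serpinb9. These windows therefore lie partly or wholly inside the annotated gene. The C/EBP-ATF match of Serpinf1 and the match of Serpinb9 are both in the part inside. A match is a run of letters and no measured binding.

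Serpinf1 encodes pigment epithelium-derived factor (PEDF), a secreted serpin that inhibits no protease and is known for blocking the growth of blood vessels and for its role in bone. The gene is on chromosome 11 (75409769 to 75422701, minus strand, GRCm38). With the Ago2+/+ label its level was 4.42 FPKM under DMSO, 73.7 under tunicamycin and 242.0 under thapsigargin. With the Ago2-/- label it was 80.9 FPKM under DMSO, 288.5 under tunicamycin and 24.8 under thapsigargin. Against DMSO, the FPKM in the groups labelled Ago2+/+ was thus 16.7-fold higher under tunicamycin and 54.7-fold higher under thapsigargin. With the Ago2-/- label it was 3.57-fold higher under tunicamycin but 3.26-fold lower under thapsigargin. From the lowest to the highest group the values spanned 65.2-fold, or 6.0 on the log2 scale with 0.1 FPKM added to both. A span at least as wide was found for 2.85% of the loci with at least 1 FPKM in a group.

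The levels of Serpinf1 lay in 3 tiers that followed the crossed pairs of groups. The groups labelled Ago2-/- tunicamycin and Ago2+/+ thapsigargin, those with the high smooth muscle markers, differed 1.19-fold from each other. Ago2-/- DMSO and Ago2+/+ tunicamycin differed 1.10-fold. Ago2-/- thapsigargin and Ago2+/+ DMSO were lowest and differed 5.61-fold, the widest gap within a crossed pair among the 10 serpin loci past 1 FPKM on the log2 scale with 0.1 FPKM added (2.46). Fn1, a fibroblast marker picked out after its values were seen, ranked the 6 groups in the same order as Serpinf1. Genes beside Serpinf1 did not share its span. Serpinf2, the adjacent gene for alpha-2-antiplasmin, the main plasmin inhibitor of blood, was at or under 0.138 FPKM, Wdr81 was between 4.53 and 7.19, Smyd4 between 4.32 and 7.55, Rpa1 between 85.3 and 149 and Prpf8 between 99.1 and 157 FPKM. No other gene's reference transcripts shared any exact 50-base stretch with those of Serpinf1. Less exact copies and copies outside the annotated transcripts were not searched for.

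Serpinb6a, an intracellular serpin and the mouse counterpart of human SERPINB6, was the most even. It lies on chromosome 13 (33917918 to 34002794, minus strand), in an assembled locus that runs to 34037147. Under DMSO, tunicamycin and thapsigargin its level was 198, 175 and 143 FPKM with the Ago2+/+ label, and 203, 128 and 156 FPKM with the Ago2-/- label. The highest value was 1.59 times the lowest, and 63.7% of the loci past 1 FPKM spanned a log2 range as wide or wider. The 2 groups with the high smooth muscle markers held its 2 lowest values. Of the 50-base stretches in its reference transcripts, 25.1% also occurred in transcripts of other genes, 12.5% in those of Nqo2, so fragments of this locus could be split between neighbours.

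**Figure D2:**
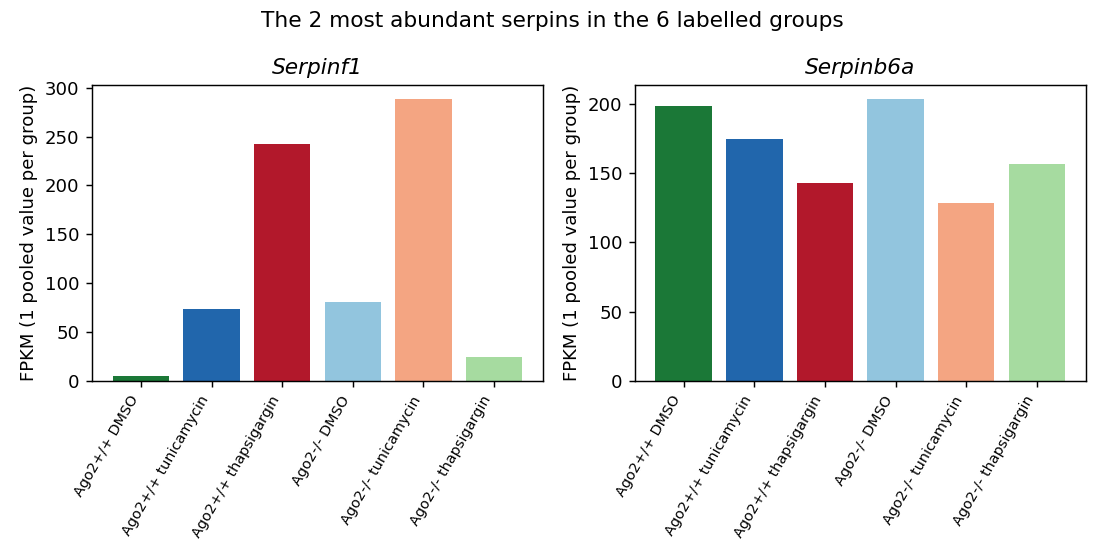
FPKM of Serpinf1 and Serpinb6a in the 6 labelled groups, 1 bar per group from the authors' pooled value, with no error available and a separate linear axis from 0 for each gene. Serpinf1 is highest in Ago2-/- tunicamycin (288.5 FPKM) and Serpinb6a in Ago2-/- DMSO (203).

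The other intracellular clade B serpins were low, and their order differed from gene to gene. Serpinb9, an inhibitor of the cytotoxic protease granzyme B, ranged from 0.681 FPKM in Ago2-/- thapsigargin to 6.53 in Ago2-/- tunicamycin, and its 6 values rank the groups as those of Serpinf1 do except that the 2 lowest are swapped. Serpinb6b, a close relative of Serpinb6a, was at 0.106 FPKM in Ago2+/+ DMSO and 0.226 in Ago2-/- thapsigargin, and between 1.69 and 3.73 in the other 4 groups. Serpinb1a, an inhibitor of neutrophil serine proteases, was lowest in the same pair of groups (0.347 and 0.560 FPKM) and highest in Ago2-/- tunicamycin (2.80). Serpinb8, which inhibits furin in human cells, passed 1 FPKM only in Ago2-/- DMSO (1.05) and was at 0.0601 in Ago2+/+ DMSO. Serpinb9b went the other way, with its highest value in Ago2+/+ DMSO (1.99 FPKM) and its lowest in Ago2+/+ tunicamycin (0.375). Summed without Serpinb6a, clade B came to 4.26, 11.8 and 8.59 FPKM with the Ago2+/+ label and to 13.3, 13.6 and 2.87 FPKM with the Ago2-/- label (DMSO, tunicamycin, thapsigargin).

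The locus that joins Serpinb10 and Serpinb2 on chromosome 1 (107511423 to 107549271) had a pattern of its own. Serpinb2 is plasminogen activator inhibitor 2, and Serpinb10 is annotated as a polymorphic pseudogene. The locus was at 1.53 FPKM in Ago2+/+ tunicamycin and 3.39 in Ago2-/- DMSO, and between 0.0153 and 0.0743 in the other 4 groups. Both groups that held it are one of the crossed pairs, those with Ago2 at 5.75 and 5.61 FPKM. The 2 genes share 243 stretches of 50 bases, 10.4% of those of Serpinb2, and the joined value cannot say which gene gave the fragments.

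Serpina3g was the only clade A locus of 23 to reach 1 FPKM. It belongs to a cluster of mouse genes that correspond to human alpha-1-antichymotrypsin and is known for inhibiting cathepsins. Its level was 2.0 FPKM in Ago2+/+ thapsigargin and 4.74 in Ago2-/- tunicamycin, at most 0.0869 in 3 others, and it was listed at 0 in Ago2-/- thapsigargin. The 2 groups that held it are those with the high smooth muscle markers. Its relatives share 15.5% of its 50-base stretches. Serpina3h, a pseudogene that shares 8.89% of them, was at 0.0568 and 0.0516 FPKM in those same groups and listed at 0 in the other 4. Serpina3n, another of the cluster, was listed at 0 in all.

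Serpini1, neuroserpin, an inhibitor of tissue plasminogen activator known from neurons, was highest in the pair of groups in which most others were lowest. It was at 2.42 FPKM in Ago2+/+ DMSO and 2.43 in Ago2-/- thapsigargin, and between 0.443 and 0.972 FPKM in the other 4 groups. These are the groups in which the interferon response genes were highest.

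Of the serpins that did not reach 1 FPKM, Serpinb9c was highest, with 0.544 FPKM in Ago2+/+ tunicamycin. Serpini2 was at 0.303 and 0.231 FPKM in Ago2+/+ tunicamycin and Ago2-/- DMSO and listed at 0 in the other 4 groups. Serpinc1, antithrombin, the main inhibitor of thrombin in blood, was between 0.103 and 0.293 FPKM. Serpine2, protease nexin-1, an inhibitor of thrombin and urokinase known from fibroblasts, was at most 0.0833 FPKM. The clusters of the family on the chromosomes were counted too, beside the 25.3% of all loci that reached 1 FPKM in a group. The share of all loci listed at 0 was not counted, and differences between clusters were not tested. Of 15 clade B loci on chromosome 13, 5 reached 1 FPKM and 0 were listed at 0 throughout. Of 10 clade B loci on chromosome 1, 2 reached 1 FPKM and 7 were listed at 0. Of 22 clade A loci on chromosome 12, 1 reached 1 FPKM and 11 were listed at 0, among them 3 of the alpha-1-antitrypsin genes that hepatocytes express (Serpina1a, Serpina1c and Serpina1d).

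Serpins were then compared in the 7 contrasts of the design. A locus entered when it had at least 1 FPKM in at least 1 of the 2 groups, and it was counted when the ratio of both values, each with 0.1 FPKM added, was at least 2. A locus low in one group enters through the other, so counts over entered loci are no support for a change. They are given beside the share of all loci counted in the same way.

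Tunicamycin against DMSO in the groups labelled Ago2+/+ had 4 serpin loci of 8 higher and 2 lower. Of all loci, 10.7% were higher and 9.31% lower. Serpinb6b (log2 4.22), Serpinf1 (4.03), the Serpinb10 and Serpinb2 locus (3.22) and Serpinb1a (2.27) were higher, and Serpini1 (-2.22) and Serpinb9b (-2.14) lower. Thapsigargin against DMSO in the same labelled genotype had 4 of 7 higher and 1 lower, beside 10.3% and 8.71% of all loci. Here Serpinf1 (log2 5.74), Serpina3g (4.22), Serpinb6b (3.12) and Serpinb9 (1.69) were higher and Serpini1 (-1.85) lower. Past 2-fold under both stressors were Serpinf1 and Serpinb6b, higher, and Serpini1, lower. Both contrasts share the DMSO group, which held the lowest Serpinf1, Serpinb6b, Serpinb1a and Serpinb8 values of all 6.

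In the groups labelled Ago2-/-, tunicamycin against DMSO had 3 of 8 loci higher and 2 lower, with 13.2% and 11.7% of all loci. Serpina3g (log2 4.69), Serpinf1 (1.83) and Serpinb9 (1.37) were higher, and the Serpinb10 and Serpinb2 locus (-4.85) and Serpinb8 (-1.58) lower. Thapsigargin against DMSO had 1 of 9 higher and 6 lower, with 9.43% and 10.9% of all loci. Serpini1 (log2 2.12) was the higher one. The lower ones were the Serpinb10 and Serpinb2 locus (-4.92), Serpinb6b (-3.28), Serpinb8 (-2.65), Serpinb9 (-1.71), Serpinb1a (-1.71) and Serpinf1 (-1.70). The median log2 ratio of the 9 entered serpin loci was -1.71, and that of all entered loci -0.02. In the other contrasts the serpin median ran from -2.42 (between genotypes under thapsigargin) to 2.27 (between genotypes under DMSO). Like the counts, these medians rest on entered loci and are no support for a change.

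**Figure D3:**
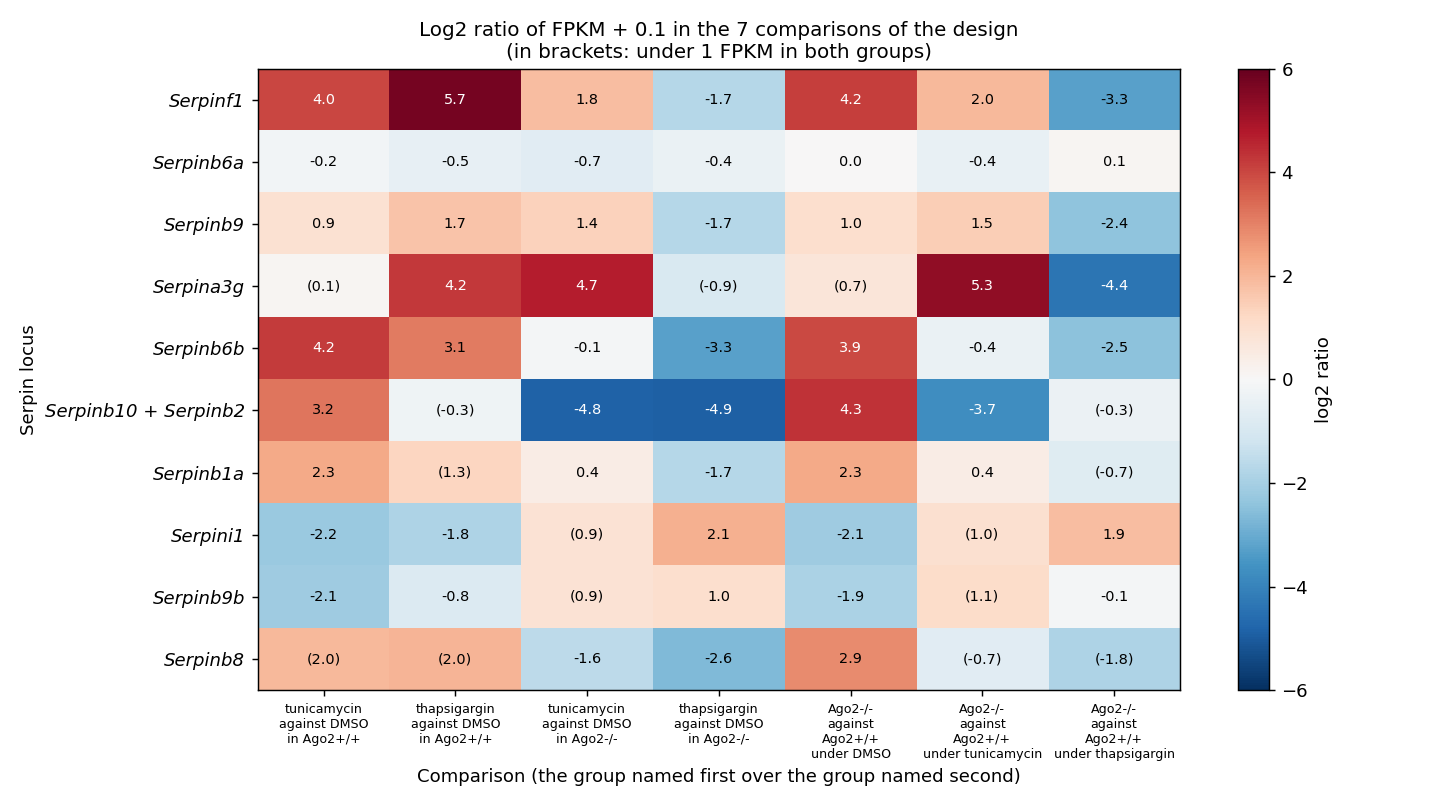
Log2 ratio of FPKM + 0.1 for the 10 serpin loci (rows) in the 7 contrasts (columns), red where the group named first is higher and blue where it is lower, with brackets where both groups are under 1 FPKM. Serpinf1 reaches 5.74 under thapsigargin in the groups labelled Ago2+/+ and -1.70 in those labelled Ago2-/-.

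The labelled genotypes were set side by side within each treatment. Under DMSO, 5 of 9 serpin loci were higher in Ago2-/- and 2 lower, beside 10.6% and 9.42% of all loci. The higher ones were the Serpinb10 and Serpinb2 locus (log2 4.32), Serpinf1 (4.16), Serpinb6b (3.94), Serpinb8 (2.85) and Serpinb1a (2.27), and the lower ones Serpini1 (-2.12) and Serpinb9b (-1.92). Under tunicamycin, 3 of 7 were higher and 1 lower, beside 13.1% and 11.2% of all loci. Serpina3g (5.32), Serpinf1 (1.97) and Serpinb9 (1.46) were higher and the Serpinb10 and Serpinb2 locus (-3.75) lower. Under thapsigargin, 1 of 7 was higher and 4 lower, beside 8.64% and 10.9% of all loci. Serpini1 (1.85) was higher, and Serpina3g (-4.39), Serpinf1 (-3.28), Serpinb6b (-2.45) and Serpinb9 (-2.42) were lower. Serpinf1 was thus higher in the labelled knockout under DMSO and tunicamycin and lower there under thapsigargin. Serpinb6a stayed within 2-fold in all 7 contrasts, with log2 ratios from -0.67 to 0.13.

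Opposite directions in both genotypes were the pattern by which the study chose candidate targets of AGO2, as lower under stress in Ago2+/+ and higher in Ago2-/-. The study asked for it under both stressors and by a p-value, which was not used here. With 2-fold asked in each genotype, Serpini1 had this direction under thapsigargin, 1 of 6 serpin loci that entered both contrasts, beside 3.37% of 11677 loci. Under DMSO and then thapsigargin, Serpini1 stood at 2.42 and 0.601 FPKM with the Ago2+/+ label, and at 0.483 and 2.43 FPKM with the Ago2-/- label. Under tunicamycin it stood at 0.443 FPKM in Ago2+/+ and 0.972 in Ago2-/-, so both values of the Ago2-/- contrast were under 1 FPKM and it did not enter there. The reverse direction under thapsigargin, higher in Ago2+/+ and lower in Ago2-/-, was held by Serpinf1, Serpinb9 and Serpinb6b, 3 of the 6 loci, beside 3.79% of all. Under tunicamycin the first direction was held by 0 of 6 serpin loci (4.48% of 11795 loci) and the reverse by the Serpinb10 and Serpinb2 locus alone (5.58%). Ago2+/+ DMSO and Ago2-/- thapsigargin are a crossed pair. A locus that sets this pair apart from the other groups takes opposite directions under thapsigargin, as Serpini1, Serpinf1, Serpinb9 and Serpinb6b do. Under tunicamycin the same holds for the Serpinb10 and Serpinb2 locus, with the pair of Ago2+/+ tunicamycin and Ago2-/- DMSO. The difference between genotypes was not tested, since the values have no error.

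Within the 3 crossed pairs serpins differed less. Ago2-/- thapsigargin against Ago2+/+ DMSO had 1 of 5 serpin loci past 2-fold in either direction (4.11% of all loci), which was Serpinf1. Ago2-/- DMSO against Ago2+/+ tunicamycin had 1 of 7 (1.83% of all), the Serpinb10 and Serpinb2 locus, 2.22-fold higher in Ago2-/- DMSO. Ago2-/- tunicamycin against Ago2+/+ thapsigargin had 2 of 7 (2.19% of all), Serpina3g (2.37-fold) and Serpinb1a (2.86-fold), both higher in the first group. Over the 10 serpin loci that reached 1 FPKM in any group, the median absolute log2 ratio was between 0.22 and 0.64 in these pairs and between 0.91 and 2.19 in the other 12. The serpin median was larger than that of other loci in all 15 pairs, which share 6 groups and are not independent. Loci were taken by their highest group, and 8 of the 10 serpin loci stayed under 10 FPKM in every group. Other loci of like level were not compared, so the larger median cannot be read as a trait of serpins. Of the 10 loci, 5 (Serpina3g, Serpinb6b, Serpinb9, Serpinf1 and Serpini1) had the members of each crossed pair beside each other when the 6 groups were ordered by level. That is 50%, and 50.3% of all loci past 1 FPKM did so.

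**Figure D4:**
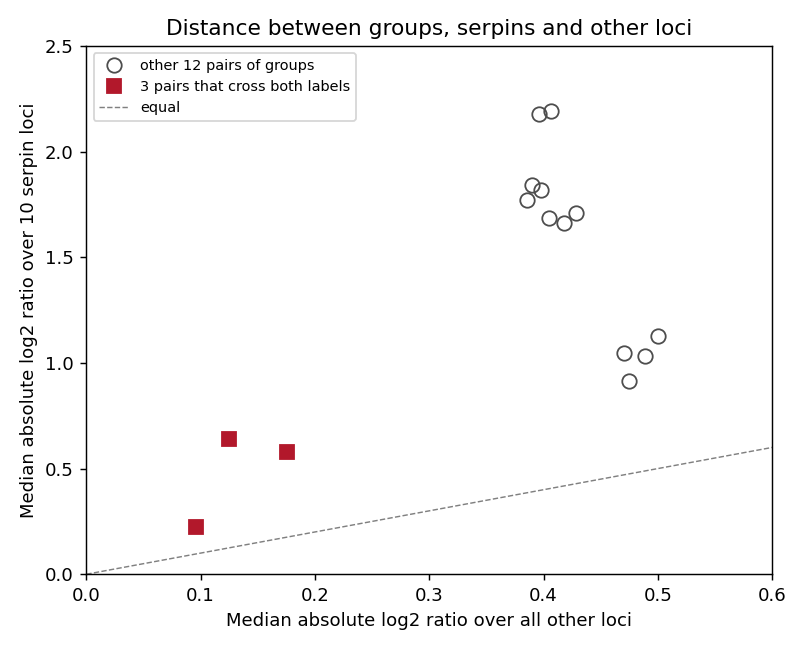
Each point is 1 of the 15 pairs of groups, with the median absolute log2 ratio over all other loci past 1 FPKM on the x axis and over the 10 serpin loci on the y axis; squares are the 3 pairs that cross both labels, and the dashed line marks equal medians. The squares lie at 0.10 to 0.18 on the x axis and 0.22 to 0.64 on the y axis. All 15 points, which share 6 groups, are above the line, and loci of like level were not compared.

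Proteases and receptors that serpins act with were read from a list of 22 genes. Plau, urokinase, a protease that Serpinb2 inhibits, stood at 2.56, 9.52 and 11.7 FPKM with the Ago2+/+ label (DMSO, tunicamycin, thapsigargin) and at 9.07, 12.5 and 4.80 FPKM with the Ago2-/- label. Plat, tissue plasminogen activator, stood at 10.4, 8.97 and 23.8 FPKM and at 10.2, 34.7 and 5.45 FPKM. Plau was lowest in Ago2+/+ DMSO and Ago2-/- thapsigargin, where Serpinf1 was lowest as well. Plat was lowest in Ago2-/- thapsigargin and highest in Ago2-/- tunicamycin. Plaur, the urokinase receptor, had its lowest values in Ago2-/- tunicamycin (28.2 FPKM) and Ago2+/+ thapsigargin (43.4) and was between 74.9 and 103 FPKM in the rest. Lrp1, the receptor that takes up serpin and protease complexes, was highest in those 2 groups (41.0 and 39.3 FPKM) and between 16.6 and 31.9 elsewhere. Thbd, thrombomodulin, a cofactor of thrombin, was at 5.32 and 3.71 FPKM in the same 2 groups and at most 0.0646 in the rest. Serpina3g was likewise found in these 2 groups, and the share of all loci with this pattern was not counted.

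Of the other partners, Klkb1, plasma kallikrein, was read from a locus that joins it to Cyp4v3 and Gm45753. That locus was highest in Ago2-/- tunicamycin (1.23 FPKM), with log2 ratios of 2.87 against Ago2-/- DMSO and 2.71 against Ago2+/+ tunicamycin, and was at or under 0.652 FPKM elsewhere. F2r, a thrombin receptor, was past 2-fold in 1 contrast (log2 1.19, tunicamycin in Ago2+/+), and Hspg2, the matrix proteoglycan perlecan, also in 1 (-1.20, between genotypes under thapsigargin). Ctsl, the lysosomal protease cathepsin L, was at 167 and 176 FPKM in Ago2-/- tunicamycin and Ago2+/+ thapsigargin and between 322 and 363 in the other groups. Furin, the proprotein convertase, stayed between 18.4 and 28.3 FPKM, and Pnpla2, a lipase known to bind PEDF, between 16.0 and 22.2. Vtn, vitronectin, an adhesive protein of plasma and matrix, was at most 0.0323 FPKM, Plg (plasminogen) at most 0.00613 and Gzmb (granzyme B) at most 0.0253. In the 4 contrasts of a stressor with DMSO, the partners past 2-fold were 2 higher and 0 lower of 11 (tunicamycin, Ago2+/+), 3 and 0 of 12 (thapsigargin, Ago2+/+), 4 and 2 of 13 (tunicamycin, Ago2-/-) and 0 and 0 of 11 (thapsigargin, Ago2-/-). Between the labelled genotypes they were 1 higher and 0 lower of 11 under DMSO, 4 and 2 of 13 under tunicamycin and 0 and 4 of 12 under thapsigargin. The shares of all loci given for the serpins in these contrasts apply here as well.

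Of the genes left out by the rule, the more abundant was ordered much like Serpinf1. Serpinh1, the collagen chaperone HSP47 of the ER, stood at 371, 562 and 904 FPKM with the Ago2+/+ label and at 544, 901 and 299 FPKM with the Ago2-/- label, again in the order DMSO, tunicamycin, thapsigargin. It ranked the groups as Serpinf1 did apart from the order within each crossed pair. Serping1 was at most 0.134 FPKM. The ER stress genes Hspa5, Ddit3, Herpud1, Hsp90b1, Dnajb9 and Sdf2l1 were present in every group and summed to 7574, 9238 and 8386 FPKM in Ago2+/+ and to 10213, 8259 and 6079 in Ago2-/-, in the order DMSO, tunicamycin, thapsigargin. Hspa5, the ER chaperone BiP, made up most of each sum. With the Ago2-/- label its level was 7682 FPKM after DMSO, 5155 with tunicamycin and 3677 with thapsigargin. The other 5 genes were higher there under tunicamycin than under DMSO, among them Herpud1 (334 and 492 FPKM) and Ddit3 (339 and 349). All 5 stayed within 2-fold. Under thapsigargin, Ddit3 (253 FPKM), Herpud1 (207), Dnajb9 (9.05) and Sdf2l1 (96.4) were lower there than under DMSO (339, 334, 29.0 and 190). Hsp90b1 was higher (1837 FPKM, against 1639 under DMSO). The 6 genes that every cell uses summed to between 8281 and 9863 FPKM. Eef1a1, between 5215 and 6329 FPKM, made up most of each sum. Single genes varied more, with Ppia from 332 to 794 FPKM, Actb from 867 to 1768 and Gapdh from 233 to 496.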

How the data were processed

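RNA of mouse embryonic fibroblasts was sequenced from 18 libraries, 3 per group. Per the labels, the submitters' processing notes name FastQC 0.11.7, HISAT2 2.1.0, StringTie 1.3.4d and Cuffdiff 2.2.1 and the build GRCm38. The deposited FPKM values are 1 estimate per group and locus, made by the authors over the libraries of the group, for 51499 loci. The table of 772485 rows repeats them for 15 pairs of groups. Its other columns hold the authors' own comparisons (log2 fold change, statistic, p-value, q-value and call), which were not used. The sources used here do not give strandedness or library scaling. Depth is unknown, and the number of libraries limits the precision. The study calls its replicates biological, and the sources used here do not say more on how the cultures of these libraries were kept apart.

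Groups followed the library titles, which the column names match. Log2 ratios were computed from FPKM + 0.1, over loci with at least 1 FPKM in at least 1 of the 2 groups, and counted from 2-fold on. Of the serpins that the rule finds, 1 locus is not reported here. No test was run, as there is 1 value per group. Named with all values were serpins from 10 FPKM on, more briefly those from 1 FPKM on, with fixed lists of partners and markers. The serpins and the lists were chosen with earlier results of these data known. Serpini1, Serpinf1 neighbours and low serpins such as Serpina3h were described after their values were seen. Gene positions are those of GENCODE (GRCm38), and start sites and upstream sequences those of RefSeq (GRCm38.p6). Shared 50-base stretches were counted in the GENCODE transcripts. Alternatives were a pseudocount of 1 FPKM, a minimum of 0.1 FPKM or none, loci with 1 symbol only, and centring on the median locus. The counting was tested on a copy of the real values with known ratios planted in loci well past the minimum, so low loci were not covered. Python 3.11.15, pandas 2.3.3, numpy 2.4.6 and matplotlib 3.10.9 were used.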

Additional observations from a re-analysis of the deposited data

How the results depend on the processing

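The counts of serpin loci past 2-fold in the 7 contrasts were between 4 and 7. With a pseudocount of 1 FPKM they were between 4 and 6, with loci of 1 symbol only between 3 and 6, and with ratios centred on the median locus between 4 and 8. All 7 counts stayed within 1.5 times their value under these 3 settings, although a pseudocount of 1 FPKM ended 4 calls. Serpinb8 lost all of its calls, going from 2.85 to 0.95 between the labelled genotypes under DMSO (5 higher and 2 lower became 4 and 2), and with the Ago2-/- label from -1.58 to -0.67 under tunicamycin (3 and 2 became 3 and 1) and from -2.65 to -0.92 under thapsigargin. There Serpinb1a went from -1.71 to -0.97 (1 and 6 became 1 and 4). With a minimum of 0.1 FPKM, and likewise with no minimum, 3 counts moved further, from 6 to 10 for tunicamycin and from 5 to 8 for thapsigargin against DMSO in the groups labelled Ago2+/+, and from 4 to 8 between the labelled genotypes under tunicamycin, where the split went from 3 higher and 1 lower to 4 and 4. More low loci enter under these settings. No log2 ratio past 2-fold changed sign with a pseudocount of 1 FPKM or with centring, and the median log2 ratio of all loci lay between -0.03 and 0.01. No paired analysis was possible because the table holds 1 pooled value per group, and for the same reason no library could be left out. The authors' test columns were not used, and without values per library or a known depth no difference was set against replicate error, and the levels under 1 FPKM carry an unknown uncertainty.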
